A study of Mus musculus with 18 samples.

Results

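The genes described here are 10 genes of the circadian clock, namely *Arntl*, *Clock*, *Npas2*, *Per2*, *Per3*, *Cry1*, *Cry2*, *Nr1d1*, *Nr1d2* and *Dbp*. They were taken from the deposited count table as the rows whose Ensembl gene ID was paired with one of these symbols in the table of results deposited beside it. This gave 10 of the 55573 genes in the table, and all 10 had enough reads over the 18 samples to be tested, as had 24862 genes in all. RNA had been sequenced from the ipsilateral dorsal horn of the spinal cord (DHSC, segments L3 to L5) of C57BL/6J mice aged 8 to 12 weeks and housed under 12 h light cycles. All mice had received 2% formalin under the skin of the left hind paw, at 8 µl per 20 g of body weight, and tissue was taken 2 h later. The 3 groups were 6 males, 6 females of the F1/proestrus group (a short pause between the phases of pain behaviour, with a vaginal smear in proestrus) and 6 of the F2/metestrus group (a longer pause, in metestrus). Since behaviour and stage of the estrus cycle define the female groups jointly, their parts cannot be told apart, and no group without formalin is included. The hour of the day at which tissue was collected is not given in the sources used here. The methods call the samples biological replicates.

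The circadian clock is a loop of transcription that runs in nearly every cell with a period of about a day. Its activator is a dimer of BMAL1, encoded by *Arntl*, with CLOCK or with its paralog NPAS2. The dimer binds E-boxes and drives Per and Cry genes, whose proteins return to the nucleus and repress it. In a second loop the nuclear receptors REV-ERBα (*Nr1d1*) and REV-ERBβ (*Nr1d2*) are driven by the same dimer and repress *Arntl*, *Npas2* and, to a lesser degree, *Clock*. DBP, the product of *Dbp*, is a PAR bZIP transcription factor that is driven through E-boxes and acts on D-boxes in output genes and in Per genes. Because of these loops, the transcripts of *Dbp*, *Nr1d1*, *Per2* and *Per3* are known to peak at other hours than those of *Arntl* and *Npas2*, in roughly opposite phase. Clocks outside the brain's suprachiasmatic nucleus are set by signals such as glucocorticoids and feeding as well as by that nucleus.

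Between 73590509 and 125724156 reads were counted per sample, with a median of 102556432. By the numbers that the column headers carry, the libraries fall into 2 series of 9, the first with replicates 1 to 3 of every group and the second with replicates 4 to 6, and what the series stand for is not stated. Spearman correlations between samples ranged from 0.986 to 0.995. The 8 transcripts listed for dorsal horn neurons summed to between 287.2 and 411.3 CPM (read counts scaled to a common library size) in every sample. Of this, *Calb2* alone made from 134.6 CPM (F1/proestrus 2) to 192.8 CPM (male 6). The sample F1/proestrus 5 held 352.5 CPM of 5 transcripts of sensory ganglion neurons, against 1.16 to 2.44 CPM in the other samples. Transcripts of motor neurons and the ventral horn summed to 271.9 CPM there, of which *Prph* made 203.1 CPM. *Prph* and *Isl1* (11.97 CPM) lay above all other samples there. *Chat* (20.97 CPM), *Slc5a7* (34.87) and *Mnx1* (1.04) lay within the range of the other samples. In those samples the list summed to between 17.3 CPM (male 5) and 127.3 CPM (F1/proestrus 3). Red blood cell transcripts ran from 35.6 CPM (male 6) to 267.3 CPM (male 4). The part of these lists in the values of the clock genes was not tested. In bulk tissue fewer cells of a type and less RNA per cell cannot be told apart, and this holds for each value that follows.

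The proximal promoters of the clock genes carry some of the DNA elements named above, and those of 5 genes are printed because they hold these elements or belong to *Dbp* and *Arntl*, members that moved against each other across samples. RefSeq promoters (GRCm38.p6) were matched for 9 of the 10 members, with 12 promoters in all; none was matched for *Per2*. Only the 250 bases before the start annotated in RefSeq were read, written 5′ to 3′ on the strand of the gene. These starts can differ from the gene positions given below, which are from GENCODE. For *Dbp* the window ends at 45705246, while the gene starts at 45705088 in GENCODE, so part of the window lies inside it. Capitals mark matches on either strand of 3 elements. The first is the E-box CACGTG, the next the D-box TTANGTAA. The last is a variant of the E-box, CACGTT, which in these windows was found as its reverse complement.
*Cry1*, chr10:85185055-85185304, reverse strand: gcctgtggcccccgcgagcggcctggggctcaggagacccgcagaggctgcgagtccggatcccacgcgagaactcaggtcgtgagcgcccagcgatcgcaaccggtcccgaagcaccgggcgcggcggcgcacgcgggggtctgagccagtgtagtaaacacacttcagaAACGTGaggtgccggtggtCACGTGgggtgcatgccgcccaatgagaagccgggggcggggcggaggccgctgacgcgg
*Nr1d1*, chr11:98775378-98775627, reverse strand: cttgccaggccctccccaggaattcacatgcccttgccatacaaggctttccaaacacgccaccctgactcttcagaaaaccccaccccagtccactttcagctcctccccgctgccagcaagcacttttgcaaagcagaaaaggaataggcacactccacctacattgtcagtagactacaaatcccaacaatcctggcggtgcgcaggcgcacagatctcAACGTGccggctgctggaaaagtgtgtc
*Per3*, chr4:151044666-151044915, reverse strand: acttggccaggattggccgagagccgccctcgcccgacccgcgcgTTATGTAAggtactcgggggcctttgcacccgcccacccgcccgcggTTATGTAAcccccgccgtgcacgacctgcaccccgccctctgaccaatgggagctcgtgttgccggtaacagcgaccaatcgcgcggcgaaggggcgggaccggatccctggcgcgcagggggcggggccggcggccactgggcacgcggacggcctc
*Dbp*, chr7:45704997-45705246, forward strand: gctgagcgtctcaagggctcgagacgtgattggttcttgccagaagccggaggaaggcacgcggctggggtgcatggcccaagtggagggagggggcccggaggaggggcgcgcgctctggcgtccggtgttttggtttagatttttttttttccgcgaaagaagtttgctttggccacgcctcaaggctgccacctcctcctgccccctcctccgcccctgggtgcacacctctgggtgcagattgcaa
*Arntl*, chr7:113207215-113207464, forward strand: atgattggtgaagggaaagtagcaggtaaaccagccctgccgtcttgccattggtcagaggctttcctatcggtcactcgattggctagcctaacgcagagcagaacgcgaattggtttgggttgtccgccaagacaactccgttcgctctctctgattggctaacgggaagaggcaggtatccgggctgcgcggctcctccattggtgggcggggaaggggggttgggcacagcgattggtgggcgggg
*Cry1* held the full E-box 60 to 55 bases before its start and the variant 79 to 74 bases before it. *Nr1d1* held the variant 28 to 23 bases before its start, and *Cry2*, which is not printed, held it as well. In *Per3* the D-box was found at 2 places, 205 to 198 and 158 to 151 bases before the start. None of these elements lay in the windows of *Dbp* and *Arntl*, which says only that these letters are absent there. As a background, CACGTG was found in 6.02% of 32851 promoters of the same length, CACGTT in 3.85% and TTANGTAA in 2.06%. The half-site AGGTCA, to which REV-ERB and ROR receptors bind, occurred in *Nr1d2* and in 1 of the promoters of *Clock* (14.0% of all promoters), and the cAMP response element TGACGTCA in none of the 12 (1.55% of all).

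Among the members, the transcripts differed widely in level. To compare genes, CPM was divided by the total exon length of each gene in kilobases. The order by mean level over the 18 samples was *Nr1d1*, *Cry2*, *Nr1d2*, *Dbp*, *Cry1*, *Clock*, *Npas2*, *Per2*, *Arntl* and *Per3*. *Nr1d1* (ENSMUSG00000020889, chr11:98767932-98775333, reverse strand) was highest, with 31.1 ± 3.19 CPM per kilobase (SD, n = 18), and *Per3* (ENSMUSG00000028957, chr4:151003652-151044665, reverse strand) lowest, with 1.97 ± 0.451. Among neighbours in this order, *Dbp* lay above *Cry1* and *Cry1* above *Clock* in all 18 samples, and *Nr1d2* above *Dbp* in 17 of 18. The order was less clear elsewhere, since *Nr1d1* lay above *Cry2* in 16 samples, *Cry2* above *Nr1d2* in 12, *Clock* above *Npas2* in 15, *Npas2* above *Per2* in 11, *Per2* above *Arntl* in 13 and *Arntl* above *Per3* in 16. The ranges of these 6 pairs overlapped, and the members of each pair were not tested against each other.

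The first question was whether the clock differed between the female groups. None of the 10 members passed a false discovery rate (FDR) of 5%, and neither did any other gene (F2/metestrus against F1/proestrus, edgeR's quasi-likelihood test on 24042 genes, 0% called, 596 genes at an unadjusted p under 0.05, 2 genes called by DESeq2). For 7 members the fitted difference was positive, with a median log2 fold change of 0.0066 over the 10, against -0.00038 over all genes tested.

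Of the activators, *Arntl* (ENSMUSG00000055116, chr7:113207465-113314126, forward strand) measured between 17.3 and 26.4 CPM in F1/proestrus, with a median of 21.4, and between 14.4 and 27.6 CPM in F2/metestrus, with a median of 21.96. The range of one group lay within that of the other. Its log2 fold change was 0.0048 ± 0.142 (SE; 95% interval -0.30 to 0.31). *Clock* (ENSMUSG00000029238, chr5:76209868-76304792, reverse strand) had a mean of 64.4 ± 12.3 CPM in F2/metestrus and 64.1 ± 10.0 in F1/proestrus (SD, n = 6 each), and *Npas2* (ENSMUSG00000026077, chr1:39193731-39363236, forward strand) 16.9 ± 3.73 and 16.7 ± 2.36. For both, the 95% interval allowed differences of up to about 0.3 on the log2 scale in either direction (-0.26 to 0.27 for *Clock*, -0.28 to 0.30 for *Npas2*).

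*Per2* (ENSMUSG00000055866, chr1:91415982-91459324, reverse strand), a repressor of the loop, ranged from 15.5 to 32.6 CPM in F1/proestrus, with a median of 21.2, and from 15.97 to 26.6 in F2/metestrus, with a median of 20.6. The highest value in any sample was that of F1/proestrus 2, and the remaining values of both groups overlapped. Its log2 fold change was -0.10 ± 0.182 (SE; 95% interval -0.48 to 0.29). *Per3*, its paralog, had equal means of 19.4 CPM in the female groups (SD 4.65 in F2/metestrus and 5.24 in F1/proestrus, n = 6 each). The cryptochromes repress the activator together with PER proteins. *Cry1* (ENSMUSG00000020038, chr10:85131700-85185064, reverse strand) measured 29.1 ± 2.84 against 28.2 ± 1.67 CPM, and *Cry2* (ENSMUSG00000068742, chr2:92403646-92434043, reverse strand) 172.5 ± 14.97 against 171.2 ± 8.24 CPM, with an interval of the fold of *Cry2* from 0.919 to 1.103.

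The smallest unadjusted p among the members belonged to *Nr1d1*, which encodes REV-ERBα. It ranged from 88.8 to 110.8 CPM in F1/proestrus, with a median of 98.4, and from 81.1 to 100.4 in F2/metestrus, with a median of 93.5. The 3 highest values were all from F1/proestrus, and the others overlapped. The log2 fold change was -0.12 ± 0.0668 (SE; 95% interval -0.27 to 0.019) and the adjusted p in edgeR's test was 1. *Nr1d2* (ENSMUSG00000021775, chr14:18204054-18239127, reverse strand) had means of 140.2 ± 12.7 CPM in F2/metestrus and 134.2 ± 25.02 in F1/proestrus (SD, n = 6 each). *Dbp* (ENSMUSG00000059824, chr7:45705088-45710203, forward strand), the output gene, showed the widest interval. It ran from 26.6 to 66.3 CPM in F1/proestrus, with a median of 37.0, and from 28.2 to 83.9 in F2/metestrus, with a median of 38.0. The 2 highest samples of each group stood apart from the other 4, and the ranges overlapped. Its log2 fold change of 0.074 had a 95% interval from -0.49 to 0.64, so that a fold between 0.714 and 1.55 was not distinguished from no difference at this spread.

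**Figure D1:**
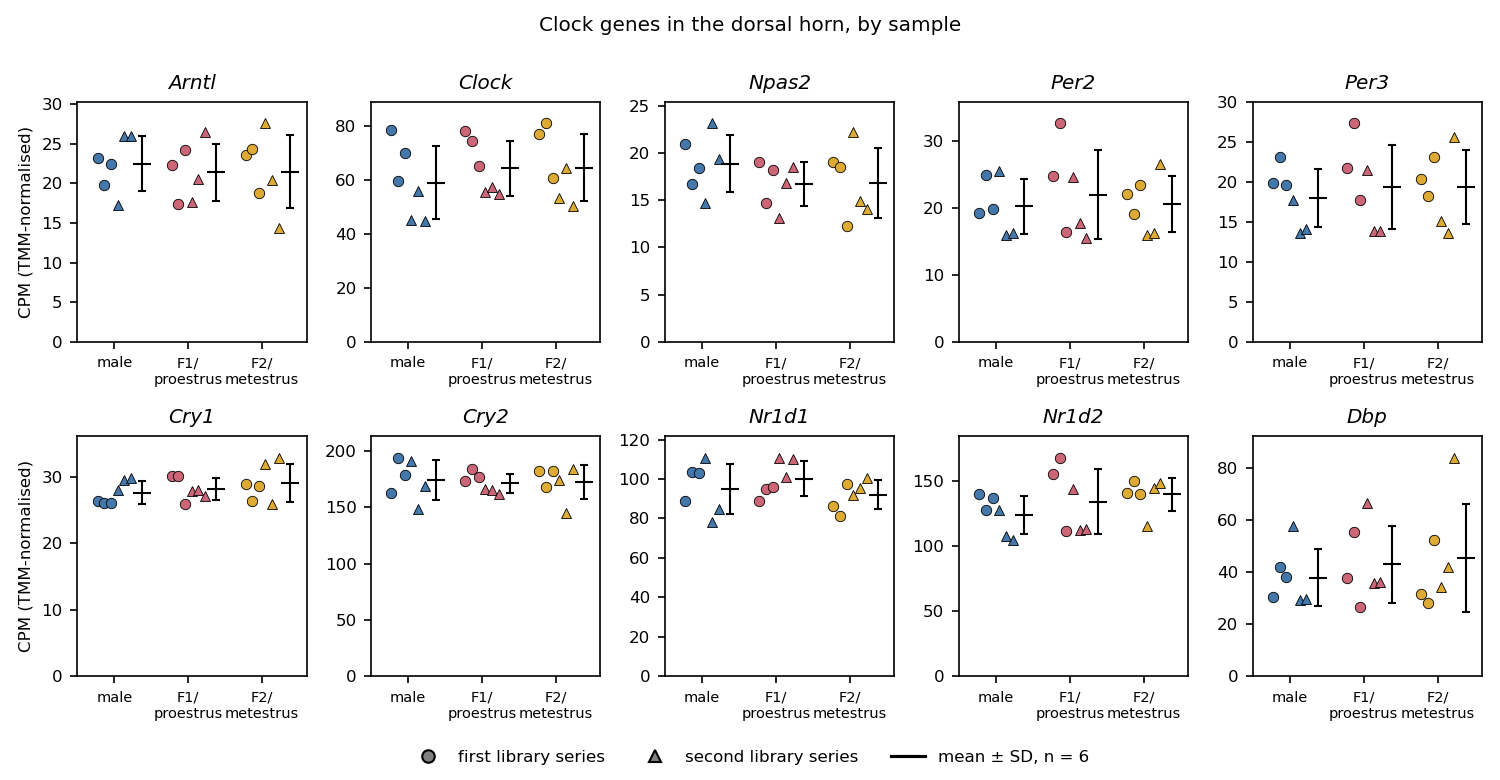
CPM of each clock gene (vertical axis, from 0) in every sample of the 3 groups, with circles for replicates 1 to 3 (first library series), triangles for replicates 4 to 6 (second) and the mean ± SD of each group (n = 6) at its right. The groups overlap for every gene, *Dbp* spreads from 26.6 to 83.9 CPM, and for *Clock* the triangles lie mostly under the circles.

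In the second comparison, none of the 10 members passed between males and females, where 49 of 24862 genes did (0.197%). Of the members, 7 had a lower fitted level in males, and the median log2 fold change was -0.061, against -0.0013 over all genes tested. *Nr1d2* had the smallest p of the 10. It ranged from 104.6 to 140.2 CPM in males, with a median of 128.0, and from 111.5 to 168.4 CPM in the 12 females, with a median of 142.6. The 2 lowest males fell under all females and the others overlapped with them. The log2 fold change was -0.14 ± 0.0903 (SE; 95% interval -0.33 to 0.046; adjusted p = 0.607 in edgeR's test).

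*Npas2*, the paralog of *Clock*, was the member with the largest positive difference, at 18.9 ± 3.02 CPM in males (SD, n = 6) and 16.8 ± 2.98 in females (n = 12). Its log2 fold change of 0.17 had a 95% interval of -0.07 to 0.40. The largest negative difference was that of *Dbp*, which ran from 29.1 to 57.5 CPM in males, with a median of 34.2, and from 26.6 to 83.9 CPM in females, with a median of 37.0. The female range enclosed the male range. The log2 fold change of -0.23 had an interval of -0.68 to 0.23. *Arntl* measured 22.5 ± 3.45 CPM in males and 21.4 ± 3.97 in females, and *Clock* 58.8 ± 13.5 and 64.3 ± 10.7 CPM. For the repressors the log2 fold changes were -0.07 for *Per2*, -0.10 for *Per3*, -0.05 for *Cry1* and 0.018 for *Cry2*, and for *Nr1d1* the value was -0.02. *Cry1* and *Cry2* had the narrowest intervals here, -0.17 to 0.066 and -0.10 to 0.14.

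Transcripts of other cells differed between the sexes beside these values. *Lcn2* was higher in males, at 9.70 ± 5.66 CPM (SD, n = 6) against 2.47 ± 0.647 in females (n = 12), as was *Mpo*, so that 2 of 4 neutrophil transcripts passed. Of 4 Schwann cell transcripts *Ncmap* passed, and of 8 dorsal horn transcripts *Grp*. The summed level ran from 10.2 to 24.6 CPM in males and from 3.23 to 7.51 CPM in females for the neutrophil list, and from 1821 to 4478 and from 1225 to 2567 CPM for the Schwann cell list. The share of *Lcn2* in the neutrophil sum varied, with 17.7 of 24.6 CPM in male 5 and 2.61 of 10.2 CPM in male 6. The part of these transcripts in the values of the clock genes was not tested.

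**Figure D2:**
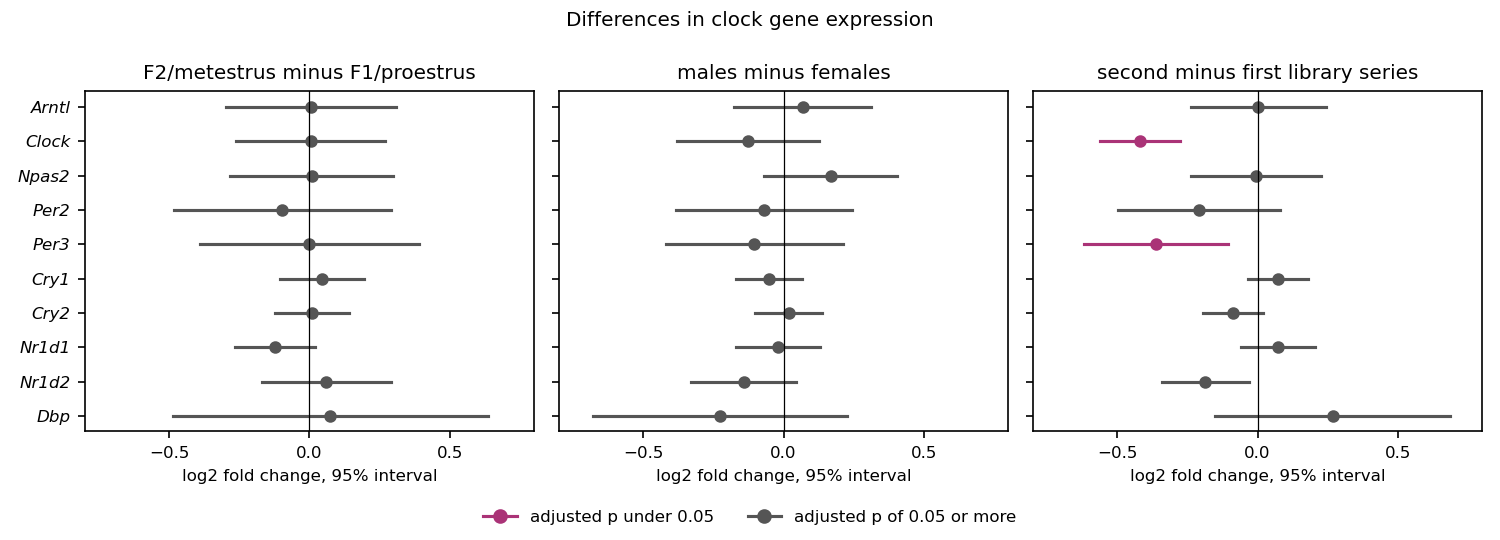
Log2 fold change of each clock gene (point) with its 95% interval (line) in edgeR's fits, for F2/metestrus minus F1/proestrus (12 samples), males minus females (18 samples) and the second minus the first library series (18 samples). Each interval of the first 2 panels includes 0, while *Clock* (-0.42) and *Per3* (-0.36) passed the FDR of 5% in the third.

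A wider list of 22 clock genes, which holds *Per1*, the ROR receptors, the PAR bZIP factors *Tef* and *Hlf*, their competitor *Nfil3*, the repressors *Bhlhe40*, *Bhlhe41* and *Ciart*, and the kinases and ubiquitin ligases that act on PER and CRY, was tested in the same fits. None of the 22 passed between the female groups, and none between the sexes. *Per1*, which is induced by acute signals as well as by the clock, had means of 10.5 ± 1.48 CPM in F2/metestrus, 11.1 ± 1.92 in F1/proestrus and 11.0 ± 2.33 in males (SD, n = 6 each). Neither 10 genes induced by glucocorticoids nor 8 genes induced by neuronal activity included one that passed in these 2 comparisons. Between the female groups the log2 fold changes ran from -0.09 to 0.083 for the glucocorticoid list and from -0.33 to -0.061 for the activity list, and between the sexes from -0.05 to 0.45 and from -0.02 to 0.33.

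The third comparison was between the library series. In the second series 2 of the 10 members were lower than in the first, *Clock* and *Per3*, which is no more than the background share, since 6774 of 25180 genes passed in this contrast (26.9%). *Clock* ranged from 59.3 to 80.8 CPM in the 9 samples of the first series, with a median of 74.3, and from 44.5 to 64.5 CPM in the second, with a median of 54.8. The series overlapped only between 59.3 and 64.5 CPM. The log2 fold change was -0.42 ± 0.0686 (SE; 95% interval -0.56 to -0.28; adjusted p = 0.000146 in edgeR's test). It was negative within each group, at -0.37 in F1/proestrus, -0.38 in F2/metestrus and -0.52 in males, with adjusted p of 0.0732, 0.116 and 0.0445 in fits of 3 against 3 samples.

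*Per3* ranged from 17.7 to 27.4 CPM in the first series, with a median of 20.4, and from 13.6 to 25.7 CPM in the second, with a median of 14.1. In the second series 6 samples lay under the whole first series, and F1/proestrus 4 and F2/metestrus 6 lay in its upper part. The log2 fold change was -0.36 ± 0.123 (SE; 95% interval -0.62 to -0.10; adjusted p = 0.0347 in edgeR's test). The call was lost when any 1 of 8 samples was left out, namely males 2 and 6, F1/proestrus 2, 5 and 6 or F2/metestrus 3, 4 and 5, with values of -0.34 to -0.32 and adjusted p of up to 0.0777. Within the groups the values were -0.44, -0.19 and -0.46 for F1/proestrus, F2/metestrus and males, none past the threshold. *Nr1d2* came next, with a log2 fold change of -0.19 ± 0.0747 (SE) and an adjusted p of 0.0723. It passed with no filter on low counts (-0.20, adjusted p = 0.0292 in edgeR's test) and when F1/proestrus 3, F1/proestrus 4 or F2/metestrus 6 was left out (adjusted p of 0.0165, 0.0418 and 0.0443). *Dbp* had the largest positive value, 0.27, with an interval of -0.15 to 0.69. *Arntl* and *Npas2* were near 0, at 0.003 and -0.007.

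Among the 22 other clock genes, 3 were lower in the second series and 2 higher. This count and those of the lists that follow stand beside the 26.9% of all genes that passed in this contrast. *Per1* was lower, with 9.79 ± 1.74 CPM against 12.0 ± 1.23 (SD, n = 9 each; log2 fold change -0.29, adjusted p = 0.0246 in edgeR's test). So were *Btrc* and *Fbxw11*, subunits of ubiquitin ligases that mark PER proteins for degradation, by smaller amounts (-0.15 and -0.16 on the log2 scale). *Usp2*, a deubiquitinase, and *Noct*, a rhythmically expressed enzyme first described as a deadenylase, were higher by 0.17 and 0.12. In the glucocorticoid list 2 of 10 genes were lower, *Ddit4* (-1.49) and *Zbtb16* (-0.55), and 2 higher, *Mt1* (0.25) and *Mt2* (0.41), and none of the 8 activity-induced genes passed. Among the transcripts of dorsal horn neurons 5 of 8 were higher in the second series, where the list summed to between 318.5 and 411.3 CPM, against 287.2 to 360.5 CPM in the first. The part of this difference in the levels of *Clock* and *Per3* was not tested. Whether the effect of sex or of the female group on a member differed between the series was tested by an interaction term, and none of the 20 tests passed. The smallest p was that of *Nr1d1* for sex by series (difference of -0.26 on the log2 scale, adjusted p = 0.97 in edgeR's test).

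While the group means were close, the members varied strongly from sample to sample. The SD of log2 CPM between samples of the same group was 0.488 for *Dbp*, which placed it at percentile 99.6 of the 9360 genes with a mean level at least that of *Npas2*, the member lowest in CPM. The median gene of that set had an SD of 0.127. *Per3* and *Per2* followed with 0.350 and 0.342 (percentiles 98.0 and 97.8), then the activators *Clock* with 0.278, *Arntl* with 0.273 and *Npas2* with 0.260 (94.8, 94.3 and 93.2). *Nr1d2* reached 0.201 (percentile 84.0). The lower end was formed by *Nr1d1* with 0.149 (65.0), *Cry2* with 0.121 (44.5) and *Cry1* with 0.108 (33.2), so that the cryptochromes varied about as much as the median gene or less. Taken from the lowest to the highest of the 18 samples, *Dbp* differed 3.15-fold, *Per2* 2.11-fold, *Arntl* 1.92-fold and *Cry1* 1.27-fold. Between samples of the same group and the same library series the SD of *Clock* was 0.172 (percentile 89.2) and that of *Per3* 0.306 (98.5), both smaller than over the whole group, while *Dbp*, *Per2*, *Arntl* and *Npas2* had 0.516, 0.355, 0.3003 and 0.288 (99.8, 99.2, 98.4 and 98.2).

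**Figure D3:**
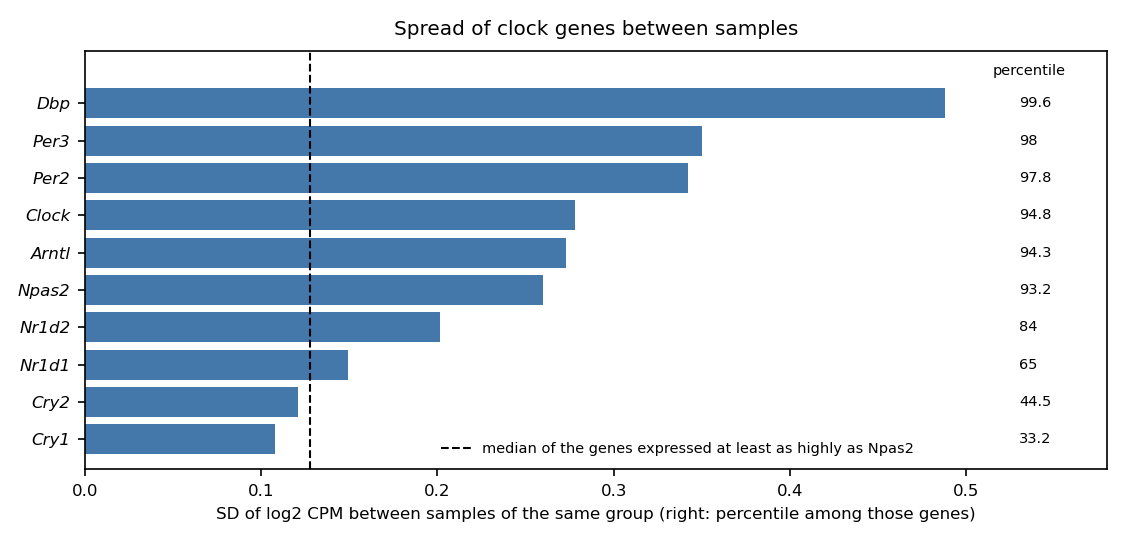
SD of log2 CPM between samples of the same group (bars, horizontal axis) for the 10 clock genes, with the percentile of each among the 9360 genes expressed at least as highly as *Npas2* at the right. *Dbp* (0.488) stands far above the median of those genes (dashed line, 0.127), and *Cry2* and *Cry1* lie just under it.

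The samples with high *Dbp* were the same in which other members were high or low. The 5 highest *Dbp* values were found in F2/metestrus 6 (83.9 CPM), F1/proestrus 4 (66.3), male 4 (57.5), F1/proestrus 2 (55.5) and F2/metestrus 3 (52.4). In these 5 samples *Arntl* measured 14.4, 17.7, 17.3, 17.3 and 18.8 CPM, which were the 5 lowest of its 18 values. All 3 groups and both library series are among them. At the other end, *Dbp* was lowest in F1/proestrus 3 (26.6 CPM), F2/metestrus 2 (28.2) and male 5 (29.1), where *Arntl* measured 24.2, 24.3 and 26.0 CPM.

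Over the 18 samples Spearman's rho of *Arntl* with *Dbp* was -0.85 (permutation test with 100000 resamples, p = 6e-05) and Pearson's r of log2 CPM was -0.91 (p = 1e-05, the smallest p these resamples can give). Without the 2 samples farthest from the median of *Dbp*, r was -0.85. The relation held within each series of 9 samples, with rho of -0.95 in the first (exact permutation test, p = 0.000353) and -0.78 in the second (exact p = 0.0172), and it was -0.90 on values centred within each group and series. Of 24861 genes tested against *Dbp*, only *Mettl16* had a lower rho than *Arntl*. After Benjamini-Hochberg adjustment over these 24861 genes the p of *Arntl* was 0.213 for rho and 0.0622 for r, and no gene passed 5% (0% called; 1212 genes at an unadjusted p under 0.05 for rho). A single gene could not pass with this number of resamples and genes, since its smallest adjusted p would be above the threshold.

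*Npas2*, like *Arntl* named above as a target of REV-ERB receptors, followed *Arntl*. Its rho with *Dbp* was -0.79 (permutation test, p = 0.00016, adjusted p = 0.362), the fifth lowest of the 24861 genes, and r was -0.82, or -0.80 without the 2 samples farthest from the median of *Dbp*. Within the series rho was -0.63 and -0.95 (exact permutation test, p = 0.076 and 0.000353). *Arntl* and *Npas2* rose and fell together, with a rho of 0.86 over the 18 samples. *Clock*, which dimerises with the same partner, had a rho of only -0.31 with *Dbp*, and of 0.042 with *Arntl*.

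On the positive side, *Per2* had a rho of 0.68 with *Dbp* (permutation test, p = 0.00238, adjusted p = 0.791) and an r of 0.72, or 0.70 without the 2 farthest samples. Within the first and the second series rho was 0.88 and 0.67 (exact permutation test, p = 0.00308 and 0.0589). *Nr1d1* had the same rho of 0.68 over the 18 samples, with 0.50 and 0.75 within the series. For *Per3*, which was lower in the second series, the pooled rho of 0.54 was under both values within the series, 0.90 and 0.62. *Nr1d2* had 0.48 pooled, with 0.32 and 0.88 within the series, and *Cry2* 0.46, with 0.77 and 0.37. *Cry1* showed no relation that kept its sign, with 0.18 pooled, 0.47 in the first series and -0.20 in the second.

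**Figure D4:**
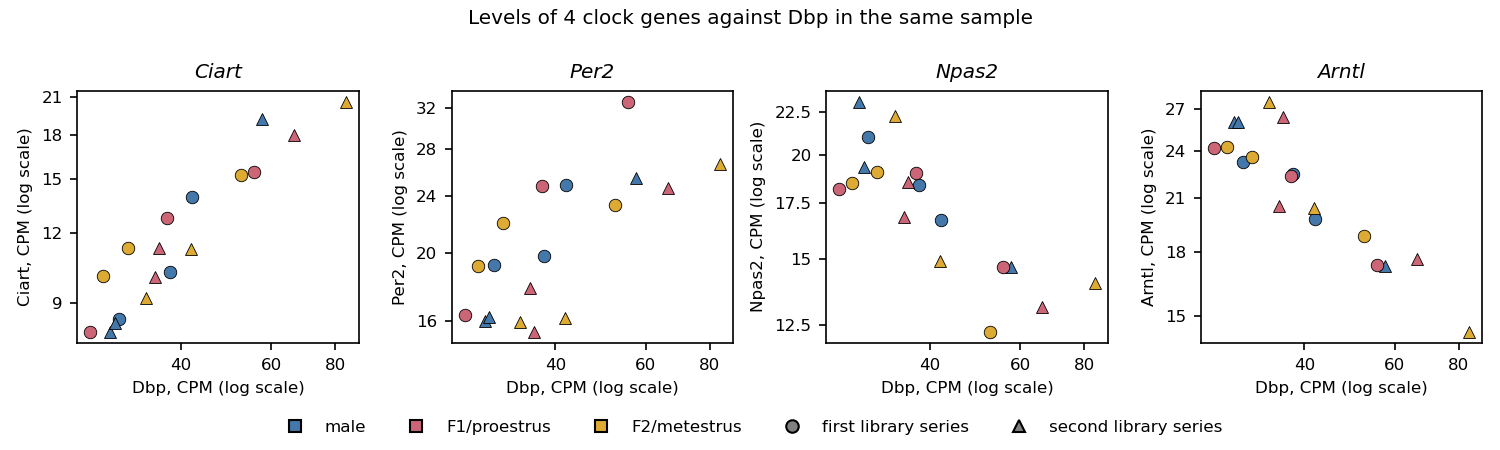
CPM of *Ciart*, *Per2*, *Npas2* and *Arntl* (vertical axes) against CPM of *Dbp* (horizontal axis) in the 18 samples, on log axes, with colours for the groups and shapes for the library series. *Ciart* (rho 0.91) and *Per2* (0.68) are high where *Dbp* is high, *Npas2* (-0.79) and *Arntl* (-0.85) low, and all 3 groups and both series are spread along each relation.

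The genes with the highest rho with *Dbp* over the 18 samples were *Ciart*, *Gm8146*, *Dennd1c*, *Gper1* and *Gm9176*. *Ciart*, a repressor of the CLOCK-BMAL1 dimer also called CHRONO, ranked first of 24861 genes, with a rho of 0.91 and an r of 0.94 (permutation test, p = 1e-05 for both, adjusted p = 0.213 and 0.0622). It ranged from 8.002 to 20.6 CPM. Within the series its rho was 0.93 and 0.97. The rho of the remaining 4, among them *Gper1*, which encodes a G protein-coupled estrogen receptor, lay between 0.81 and 0.82. Their r ran from 0.62 (*Dennd1c*) to 0.85 (*Gm9176*). Some had low levels, such as *Dennd1c* (0.42 to 1.26 CPM) and *Gm9176* (1.36 to 4.1 CPM). The 5 genes with the lowest rho were *Mettl16*, an RNA methyltransferase, *Arntl*, *Vstm4*, the leukotriene receptor gene *Cysltr2* and *Npas2*, with values from -0.85 to -0.79, so that 2 of the 5 were members. The r of these 5 ran from -0.91 (*Arntl*) to -0.66 (*Cysltr2*, at 0.76 to 2.11 CPM). Of the other clock genes, *Tef* ranked 11th from the top with 0.76 and *Nfil3*, whose product competes with DBP at D-boxes, 10th from the bottom with -0.73. *Bhlhe40* had 0.64 and *Per1* 0.42.

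Taken over all 45 pairs of members, rho was positive for 26 and negative for 19, from -0.85 for *Per2* with *Arntl* to 0.86 for *Per2* with *Per3*, and 0 of 45 passed 5% by rho after adjustment over all genes tested. By Pearson's r the adjustment can be made over all genes set against either gene of a pair, and 3 pairs passed both ways. These were *Per2* with *Per3* (r = 0.89, adjusted p of 0.0249 and 0.0293 by permutation), *Per3* with *Nr1d2* (r = 0.75, 0.0437 and 0.0198) and *Per3* with *Cry2* (r = 0.69, 0.0496 and 0.0348). A further 3 passed one way only, *Per2* with *Cry2* against *Cry2* (r = 0.67, adjusted p = 0.0465 by permutation), *Per2* with *Nr1d2* against *Nr1d2* (r = 0.74, 0.0217) and *Clock* with *Nr1d2* against *Clock* (r = 0.60, 0.0362). Of the 24861 genes set against each, 0.0603% passed by r for *Per2*, 3.28% for *Per3*, 4.91% for *Cry2*, 13.3% for *Nr1d2* and 28.6% for *Clock*. Each pair was computed in both series, and 36 of the 45 had the same sign in both. The calls by r took no account of the series. Within the first and the second series rho was 0.93 and 0.62 for *Per2* with *Per3*, and 0.68 and 0.85 for *Per3* with *Cry2*. For *Per3* with *Nr1d2* it was 0.47 and 0.43, against 0.63 pooled. It was 0.72 and 0.58 for *Per2* with *Cry2*, 0.45 and 0.47 for *Per2* with *Nr1d2*, and 0.57 and 0.12 for *Clock* with *Nr1d2*. The part of the series in these calls was not tested. *Per2* and *Per3* went with *Cry2*, with rho of 0.74 and 0.71. *Nr1d1* went against *Npas2* (-0.68) and *Arntl* (-0.52), and *Nr1d2* against *Arntl* (-0.54) and *Npas2* (-0.41). *Clock*, like *Arntl* and *Npas2*, is named above as repressed by these receptors. Its rho was -0.39 with *Nr1d1* (-0.88 in the first series and 0 in the second) and 0.52 with *Nr1d2*. Repression was not tested. Between *Nr1d1* and *Nr1d2* themselves rho was -0.04 over the 18 samples, with -0.63 in the first series and 0.47 in the second.

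For 3 pairs with *Clock*, the values within the library series were lower than the pooled one. With *Cry2* its pooled rho was -0.09, while within the series it was -0.78 and -0.82. With *Per3* the pooled value was positive, 0.27, and the values within the series were negative, -0.33 and -0.67, and with *Per2* they were 0.15 pooled and -0.33 and -0.28 within. *Clock* and *Per3* are the members that passed between the series. The pairs without *Clock* that are named above for *Dbp* with *Arntl*, *Npas2* and *Per2* kept their sign in both series.

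**Figure D5:**
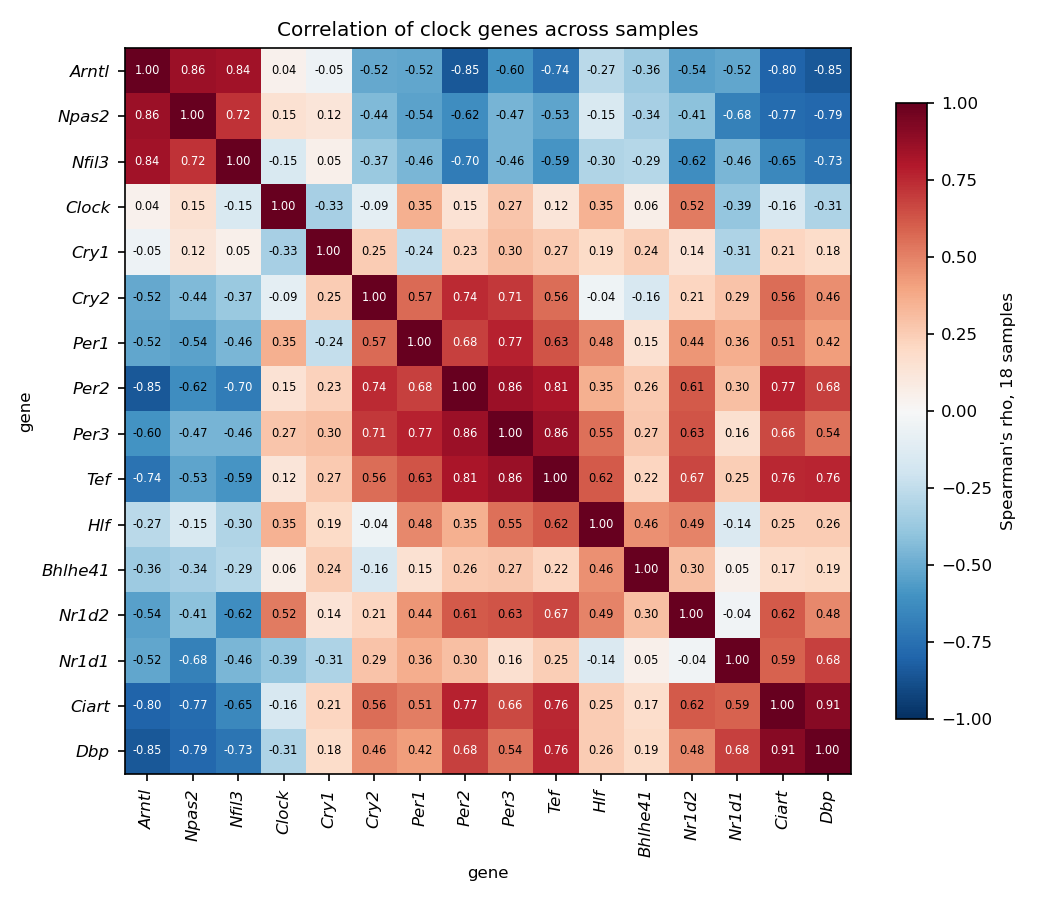
Spearman's rho over the 18 samples between each pair of the 10 clock genes and 6 further genes of the pathway (colour and number in each cell). *Arntl*, *Npas2* and *Nfil3* form a block of positive values (0.72 to 0.86) that is negative against *Dbp*, *Ciart* and *Per2*, while *Clock* and *Cry1* have mostly small values.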

How the data were processed

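RNA-Seq counts from 18 ipsilateral DHSC samples were used. The authors deposited raw counts of reads on the exons of 55573 genes, without normalization, made with Subread and featureCounts on mm10. The submitters' processing notes name Subread 2.0.3 and the methods an earlier version. For the libraries, the methods name the TruSeq kit and the labels SMART-Seq amplification with Nextera XT, and whether counting used the strand is not given in the sources used here. A deposited DESeq2 table of a single comparison was used only to pair gene IDs with symbols, and its statistics (mean signal, log2 fold changes, scores and p-values) were not used.

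Counts were tested with edgeR 4.0.16 in R 4.3.3 (filterByExpr with a minimum count of 10 and a minimum total of 15, TMM, quasi-likelihood test, Benjamini-Hochberg adjustment over all genes tested, FDR of 5%). DESeq2, which the methods name, was run as an alternative (version 1.42.0). The female groups were compared in a fit of 12 samples, males with the 12 females in a fit of 18, and replicates 4 to 6 with 1 to 3 with the group as a covariate. The SE is the log2 fold change divided by the root of the F statistic. CPM uses TMM sizes over the 18 samples, and log2 CPM a prior count of 2. Correlations were tested by 100000 resamples, by all 362880 permutations within a series of 9, and on values centred in each group and series by all 46656 permutations within these cells. Positions and exon lengths are from GENCODE vM21 on GRCm38, the build of the counts. The fits and the correlations were tested on simulated data.

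The clock genes, the wider lists and the tests were chosen with earlier results of these data known. The text names all 10 members, *Per1*, other genes of the lists that passed in a comparison, and the 5 genes with the highest and the 5 with the lowest rho with *Dbp*. *Tef*, *Nfil3* and *Bhlhe40* were added to these after their values were seen, as were the pairs of members singled out. Alternatives were DESeq2, size factors instead of TMM scaling, fits with low counts kept, the replicate number as a block, the library series as a covariate or alone, each female group or each group alone, all 3 groups in 1 fit, no group covariate, another prior count, and leaving out each sample. The p-values of the fits set a difference against the spread between these samples. Those of the pooled correlations come from permuting the 18 samples without regard to group or series.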

Additional observations from a re-analysis of the deposited data

Results flagged for a closer look

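Of 30 sets of values, 10 members in 3 groups of 6 samples, 1 held a sample far from the others by Dixon's test, where chance flags about 1 in 20. It was *Nr1d2* in F2/metestrus, for which sample 4 measured 115.7 CPM and the other 5 samples lay between 140.2 and 150.7 CPM. In the other groups the values lay on both sides of 115.7 CPM. Those under it were 111.5, 112.3 and 113.7 CPM (F1/proestrus 3, 5 and 6) and 108 and 104.6 CPM (males 5 and 6). *Dbp* measured 34.2 CPM in the same sample, near its group median of 38.0, and *Arntl* was at its highest (27.6 CPM). Without it the log2 fold change of *Nr1d2* between the female groups was 0.11, and no call changed.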

How the results depend on the processing

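No member was called between the female groups or between the sexes under any alternative run, and no member's correlation with *Dbp* passed 5% after adjustment. For the correlations a single gene could not pass with the resamples or permutations used, so this outcome does not measure stability. Counts of called genes moved more. DESeq2 called 2 genes between the female groups and 166 between the sexes, against 0 and 49. Between the sexes 133 genes were called with the library series as a covariate, 16 and 13 in the first and second series alone, and 13 and 22 for males against F1/proestrus and F2/metestrus alone. Leaving out 1 sample gave 25 to 77 genes, with 25 without male 5, 30 without male 4 and 77 without F1/proestrus 5. With the replicate block the counts were 0 and 112, and no member was called. The same-numbered samples did not deviate together in every pair of groups (correlations of -0.105 to 0.228), and they share a number and a library series. Between the series 77, 781 and 1198 genes were called within F1/proestrus, F2/metestrus and males alone.

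Values of members near 0 changed sign without being called. Between the female groups, the first series alone gave -0.042 for *Cry1*, -0.0099 for *Cry2*, -0.061 for *Npas2*, -0.020 for *Nr1d2* and -0.11 for *Dbp*, and the second 0.024 for *Per2*, 0.14 for *Per3* and -0.052 for *Arntl*. The replicate block gave -0.0063 for *Arntl*, -0.0027 for *Clock*, -0.0095 for *Npas2* and 0.0037 for *Per3*, for which other settings gave 0.0010 (size factors), 0.0021 (DESeq2), 0.013 (series as a covariate) and 0.00065 (3 groups in 1 fit). With 1 sample left out, the values ran from -0.079 to 0.10 for *Arntl*, -0.072 to 0.068 for *Clock*, -0.0085 to 0.058 for *Cry2*, -0.19 to 0.24 for *Dbp*, -0.088 to 0.084 for *Npas2*, -0.18 to 0.054 for *Per2* and -0.10 to 0.13 for *Per3*. Between the sexes, the first series gave -0.0070 for *Cry2*, -0.0060 for *Arntl* and 0.10 for *Nr1d1*, the second 0.013 for *Cry1*, and males against F2/metestrus 0.031 for *Nr1d1*, while leaving out 1 sample gave -0.022 to 0.050 for *Cry2* and -0.075 to 0.020 for *Nr1d1*. Between the series, *Arntl* measured -0.014 without the filter, -0.020 without the group covariate and -0.10 within F2/metestrus, *Cry1* -0.051 within F1/proestrus, *Npas2* 0.037 within F2/metestrus and 0.026 within males, and *Nr1d1* -0.11 within males, and leaving out 1 sample gave -0.068 to 0.068 for *Arntl* and -0.084 to 0.037 for *Npas2*. The rho of *Cry1* with *Dbp* was -0.20 in the second series. The cause of these changes was not tested. *Clock* was called between the series whichever 1 sample was left out (-0.47 to -0.39). Read depth did not limit the members, each of which had over 12 CPM in every sample, while the spread between samples limits the differences that could be seen to those outside the intervals given above.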
